A study of Mus musculus with 6 samples.

Results

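Retinoid genes were followed in primary mouse embryonic fibroblasts that differ at exon 2 of Cas, the gene of the adhesion docking protein p130Cas (symbol Bcar1). The 9 genes were Aldh1a7, Aldh1a1, Aldh1a2, Aldh1a3, Rdh5, Rdh10, Crabp1, Crabp2 and Rarb, and all probe sets annotated to 1 of these symbols alone were taken, which gave 12 of 45101 probe sets on the array and 9 of 18193 named genes. Aldh1a7 and Rdh5 were picked from measured values of these arrays, as genes said to separate wild type from the deletion genotypes, which the values below bear out for Aldh1a7 and not for Rdh5. Their values against wild type are a description. The other 7 genes were added for their function with results of these arrays already known.

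The cells were homozygous for the exon 2 deletion (Δ/Δ), heterozygous (+/Δ) or wild type (+/+), with 2 arrays each and 6 in all. All came from intercrosses of heterozygotes, from embryos at 12.5 days post coitum, and a B6 background was recorded for 5 of the 6 samples. Embryos gave up their heads and internal organs for genotyping, fibroblasts were grown from what was left in medium with 10% fetal calf serum, and 2 µg of total RNA was used per array. Each array is taken to be 1 embryo, so n = 2 per genotype throughout and p-values cover variation among embryos and among cultures.

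Retinoic acid is made from vitamin A (retinol) in a pair of oxidations, first to retinaldehyde by retinol dehydrogenases and then to the acid by the ALDH1A enzymes. Inside the cell it is carried by CRABP proteins, broken down by CYP26 enzymes, and read by nuclear receptors (RAR, paired with RXR) that bind response elements in DNA. In the embryo this pathway helps to pattern the trunk, limbs and hindbrain, and retinaldehyde oxidation by ALDH1A2 in the mesoderm is its main source there.

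Aldh1a7 and Aldh1a1 lie next to each other on chromosome 19, and their promoters are shown because the results turn on how differently these close copies were measured. The RefSeq windows of GRCm38.p6 run from 250 bases before to 50 bases after an annotated start. The Aldh1a7 window is chr19:20727507-20727806 on the minus strand, and that of the second of 2 annotated Aldh1a1 starts is chr19:20601718-20602017 on the plus strand. Capitals mark bases that are identical when both windows are laid start on start without gaps, within blocks of 50 bases that are at least 80% identical.
Aldh1a7: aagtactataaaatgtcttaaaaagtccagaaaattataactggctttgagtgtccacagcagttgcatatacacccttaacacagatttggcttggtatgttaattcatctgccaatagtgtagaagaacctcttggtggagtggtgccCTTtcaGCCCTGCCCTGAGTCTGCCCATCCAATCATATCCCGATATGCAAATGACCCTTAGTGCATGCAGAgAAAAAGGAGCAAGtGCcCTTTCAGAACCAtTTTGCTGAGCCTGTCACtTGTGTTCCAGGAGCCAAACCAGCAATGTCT
Aldh1a1: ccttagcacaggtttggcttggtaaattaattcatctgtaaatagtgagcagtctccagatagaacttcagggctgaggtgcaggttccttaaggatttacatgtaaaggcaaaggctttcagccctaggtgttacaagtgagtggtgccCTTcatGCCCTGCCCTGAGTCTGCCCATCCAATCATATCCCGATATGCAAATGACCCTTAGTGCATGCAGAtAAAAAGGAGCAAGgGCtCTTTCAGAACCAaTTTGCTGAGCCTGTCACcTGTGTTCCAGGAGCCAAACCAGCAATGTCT
Over the last 150 bases 142 were identical (94.7%), against 23.3% over the bases before them in the same ungapped layout. That layout does not count matches at shifted positions, and the earlier bases of both windows share such stretches. The low share thus does not show that the earlier bases are unrelated. In the same layout the other Aldh1a1 window reached at most 36.0% in any block. The transcripts are likewise those of close paralogs. The probes' own sequences were not used here, so how far either probe set reads both transcripts was not tested.

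The third sequence is the promoter of Rarb, shown because this receptor gene is a textbook target of retinoic acid (chr14:16575427-16575726, minus strand, RefSeq, GRCm38.p6). Capitals mark a DR5 retinoic acid response element, which is a pair of half-sites 5 bases apart in the same orientation, each of them AGGTCA or one of the related forms AGTTCA or else GGGTCA or finally GGTTCA. Both strands were searched.
Rarb: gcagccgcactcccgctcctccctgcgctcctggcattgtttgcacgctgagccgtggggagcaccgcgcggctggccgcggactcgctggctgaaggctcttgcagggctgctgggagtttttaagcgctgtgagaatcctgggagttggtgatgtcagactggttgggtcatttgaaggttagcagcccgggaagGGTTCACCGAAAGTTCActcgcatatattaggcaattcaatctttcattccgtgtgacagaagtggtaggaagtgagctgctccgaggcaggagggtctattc
The match spans 17 bases, from 53 to 37 bases before the start. Such a match was found in 32 of 32544 promoters (0.098%). Promoters were listed for 6 of the 9 genes, 7 windows in all, and only the Rarb window held a match. A match describes letters and does not show that a receptor binds there.

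The values are probe set intensities, and differences are on a log2 scale after quantile normalization, with a pseudocount of 1.78 that shrinks differences of dim probe sets. The upper 50% of probe sets by mean level, at or above a log2 intensity of 4.57, were tested with limma. By its brightest probe set, 8 of the 9 genes passed that filter, and Aldh1a3 did not. Single arrays still lay under it for Rdh5 (homozygote 2 and wild type 2) and for Rarb (homozygote 2 and heterozygote 1). The arrays differed in ways that touch the results below. The Y-linked genes and Xist, combined into a score from 0 to 1, placed both homozygote arrays (1 and 0.869) with wild type 2 (0.924), and both heterozygote arrays (0.0149 and 0) with wild type 1 (0.220). Between homozygotes and heterozygotes, genotype and embryo sex therefore cannot be told apart. Fibroblast markers were all above the filter (12 of 12, including Col1a1), and they were lowest in wild type 1, at -0.74 where 0 is the 6-array mean. Bcar1 had 268 and 324 in homozygotes and 283 and 366 in heterozygotes, against 711 and 309 in wild type (intensity), and its probe set is not placed relative to exon 2 here, so it checks nothing about the deletion.

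**Figure D1:**
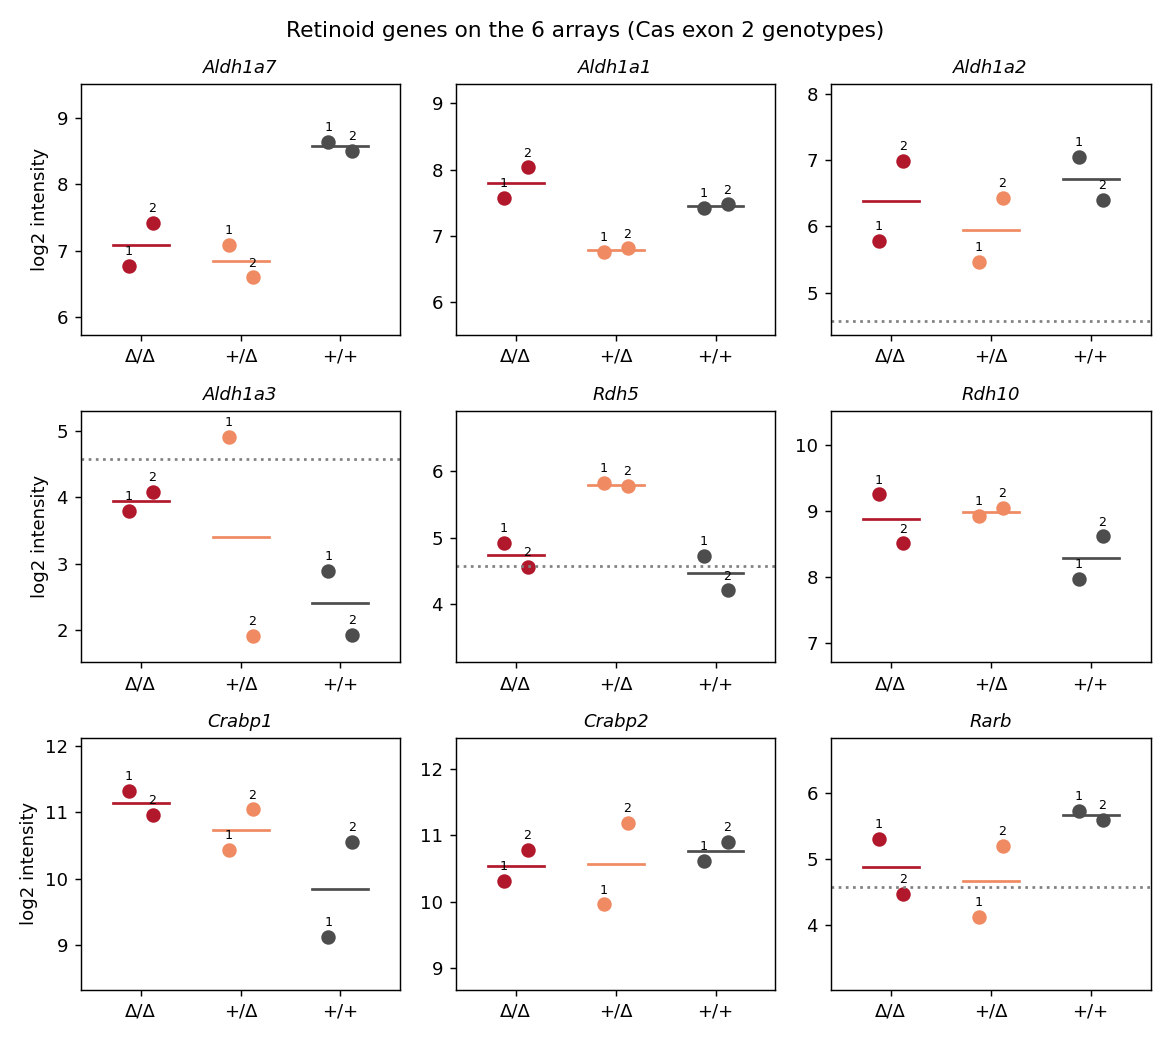
Log2 intensity (y axis, quantile normalized, the same span in each panel) of the brightest probe set of each of the 9 genes, in Δ/Δ, +/Δ and +/+ arrays. Points are arrays, numbered by replicate, bars are means of 2 arrays, and dotted lines show the filter at 4.57. Aldh1a7 is high in both +/+ arrays and Rdh5 in both +/Δ arrays.

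Aldh1a7, a rodent relative of Aldh1a1, was low in both deletion genotypes. Its intensity was 111 and 158 in homozygotes and 133 and 109.9 in heterozygotes, against 419 and 330.2 in wild type. On the log2 scale it lay at 7.09 ± 0.46 in homozygotes and 6.84 ± 0.35 in heterozygotes, against 8.58 ± 0.10 in wild type (SD, n = 2). Both wild-type arrays lay above all 4 deletion arrays, and the deletion genotypes overlapped each other. This is the pattern for which the gene was picked, so it carries no test. The homozygotes differed from wild type by -1.49 (SE 0.31), a 2.81-fold lower level, and the heterozygotes by -1.74 (SE 0.31), a 3.33-fold lower level. In 8.25% of all tested probe sets, both wild-type arrays likewise lay above the other 4. The comparison that the choice did not use, homozygotes against heterozygotes, gave 0.25 (SE 0.31, limma adjusted p = 1).

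Wild type 1 and wild type 2 differed in the sex-linked genes and in fibroblast markers (-0.74 and -0.06), and their Aldh1a7 levels were 8.65 and 8.51. With any 1 array left out, the difference of heterozygotes from wild type ranged from -1.98 to -1.49. That of homozygotes from wild type ranged from -1.81 to -1.16. Since both wild-type arrays lay above all deletion arrays, as the gene was picked for, no such run could change the sign. The ranges are a description. With embryo sex in the model the differences of heterozygotes and homozygotes from wild type were -1.93 and -1.37. Since both homozygotes lay on one side of the sex score and both heterozygotes on the other, such adjusted values, here and for the genes below, take their sex term almost wholly from wild type 1 against wild type 2, 1 array each.

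Aldh1a1, which makes retinoic acid from retinaldehyde, did not follow its neighbour. Its intensity was 189.9 and 247 in homozygotes and 107 and 128 in heterozygotes, against 171 and 159.8 in wild type. The log2 levels were 7.80 ± 0.33 in homozygotes and 6.79 ± 0.03 in heterozygotes, against 7.44 ± 0.04 in wild type (SD, n = 2). The 3 genotypes did not overlap, with homozygotes highest, wild type between and heterozygotes lowest. Wild type thus ranked highest for Aldh1a7 but in the middle for Aldh1a1.

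Homozygotes exceeded heterozygotes in Aldh1a1 by 1.01 (SE 0.24), a 2.02-fold difference at unadjusted p = 0.00538, but it did not pass the threshold over all probe sets (limma adjusted p = 1). The heterozygotes lay 0.66 under wild type (difference -0.66, SE 0.24, limma adjusted p = 0.838), and homozygotes differed from wild type by 0.35 (SE 0.24, limma adjusted p = 0.973). Against wild type and heterozygotes together the homozygotes differed by 0.68 (SE 0.21, limma adjusted p = 1). Without homozygote 2 the difference from heterozygotes was 0.78, and from wild type 0.12. Without homozygote 1 these were 1.25 and 0.59.

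Markers of some other cell types also differed between homozygotes and heterozygotes. All 10 mesothelial markers, of the lining of the body cavities, were higher in homozygotes than in heterozygotes, with a median difference of 1.23 and 0 called. Their summed intensity was 1012 and 814 in homozygotes and 275 and 705 in heterozygotes, against 900 and 571 in wild type (replicates 1 and 2). All 16 macrophage markers above the filter, of 18 measured, were also higher in homozygotes than in heterozygotes, with a median of 1.24. Their sums were 17578 and 8376 in homozygotes and 6129 and 6326 in heterozygotes, against 3658 and 7750 in wild type. Both lists were highest in homozygote 1, and Aldh1a1 in homozygote 2. The median macrophage level was 0.19 from the 6-array mean in homozygote 2 and 0.29 in wild type 2. Of 8 endothelial markers 3 passed the filter, 2 of them higher and 1 lower in homozygotes than in heterozygotes. Their median level was -0.23 and 0.68 in homozygotes and -0.72 and -0.43 in heterozygotes, against 0.88 and 0.15 in wild type. The part of these markers in the Aldh1a1 values was not tested. In bulk cultures, fewer cells of a type and less RNA per cell cannot be told apart. The wild-type arrays, which fell on opposite sides of the sex score, had Aldh1a1 at 7.42 and 7.47. They are 1 array each, and they also differed in fibroblast markers (-0.74 and -0.06) and macrophage markers (-1.15 and 0.29). With embryo sex in the model, homozygotes differed from heterozygotes in Aldh1a1 by 1.05, and heterozygotes from wild type by -0.68. That sex term rests almost wholly on the wild-type arrays. The parts of genotype and embryo sex between homozygotes and heterozygotes therefore cannot be told apart.

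Aldh1a2, the main retinaldehyde dehydrogenase of the early embryo, varied as much within genotypes as between them. Its intensity was 57.1 and 118 in homozygotes and 42.9 and 98.3 in heterozygotes, against 130.1 and 74.7 in wild type. The homozygote arrays alone spanned most of the range of the 6 arrays, and the genotypes overlapped. Homozygotes differed from heterozygotes by 0.44 (SE 0.52, limma adjusted p = 1), and heterozygotes from wild type by -0.77 (SE 0.52, limma adjusted p = 0.840). With embryo sex in the model these were 1.58 and -1.47.

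Aldh1a3, known from the eye, nose and skin of embryos, was too dim to compare. Its brightest probe set had 12.6 and 13.4 in homozygotes and 29.0 and 2.08 in heterozygotes, against 5.78 and 1.85 in wild type. Its other probe sets ranged from 2.05 to 15.7 in homozygotes and from 0.768 to 16.9 in heterozygotes, against 0.828 to 15.5 in wild type. No fold change is given, since all 3 lay below the filter.

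Rdh5, the 11-cis retinol dehydrogenase of the visual cycle in the retinal pigment epithelium, was high in heterozygotes alone. Its intensity was 30.7 and 19.6 in homozygotes and 55.6 and 61.3 in heterozygotes, against 23.9 and 15.7 in wild type. The log2 levels were 4.74 ± 0.25 in homozygotes and 5.80 ± 0.03 in heterozygotes, against 4.46 ± 0.37 in wild type (SD, n = 2). The measured values went against that stated reason, because homozygote 2 (4.56) lay below wild type 1 (4.72) and the genotypes overlapped. The arrays that stood apart were the heterozygotes, above all 4 others, as were those of 5.38% of tested probe sets.

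Rdh5 in heterozygotes differed from wild type by 1.34 (SE 0.27), a 2.53-fold higher level, and homozygotes differed from heterozygotes by -1.06 (SE 0.27). Both values use the heterozygote arrays that set the gene apart and are given with no test. Homozygotes differed from wild type by 0.28 (SE 0.27), and by 0.02 without wild type 2. With embryo sex in the model the heterozygote difference was 0.99 and the homozygote difference from heterozygotes -0.49. Rdh5 overlaps Bloc1s1 in the assembly table, and a further probe set annotated to both genes was left out.

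Rdh10, the enzyme for the first oxidation step in embryos, had 582 and 345 in homozygotes and 465 and 597 in heterozygotes, against 255 and 356 in wild type. Both heterozygote arrays exceeded both wild-type arrays, by 0.69 on average (SE 0.35, limma adjusted p = 0.838), and the homozygotes overlapped wild type. The other Rdh10 probe set gave 0.68 for the same difference, with 169 and 171 in heterozygotes against 73.4 and 118 in wild type. Homozygotes differed from heterozygotes by -0.11 at the brighter probe set and by -0.37 at the other (limma adjusted p = 1 for each). Without wild type 1 the difference of heterozygotes from wild type was 0.37. With embryo sex in the model it was 1.29, and homozygotes differed from heterozygotes by -1.09.

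Crabp1, the cytoplasmic binding protein linked to retinoic acid breakdown, was among the brighter probe sets. Its intensity was 2309.9 and 2009 in homozygotes and 1310.1 and 2294 in heterozygotes, against 597 and 1429 in wild type. The log2 levels were 11.14 ± 0.25 in homozygotes and 10.74 ± 0.43 in heterozygotes, against 9.84 ± 1.01 in wild type (SD, n = 2). Both homozygote arrays exceeded both wild-type arrays, and the heterozygotes overlapped wild type. The difference of homozygotes from wild type was 1.30 (SE 0.49), a 2.47-fold higher level at unadjusted p = 0.0372, which did not pass over all probe sets (limma adjusted p = 0.973). It rests largely on wild type 1, since it was 0.59 without that array and 2.02 without wild type 2. In wild type 1 Crabp1 was 1.45 under the mean of the 6 arrays, where fibroblast markers (-0.74) and macrophage markers (-1.15) were lowest too, and their part in the value was not tested. With embryo sex in the model, which here carries over the gap between the wild-type arrays (9.13 and 10.56), homozygotes differed from wild type by 0.56, heterozygotes from wild type by 2.05 in place of 0.90, and homozygotes from heterozygotes by -1.49 in place of 0.40.

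Crabp2, which delivers retinoic acid to its receptors, showed no order by genotype. It had 1167 and 1756 in homozygotes and 952 and 2494 in heterozygotes, against 1767 and 1812 in wild type. The heterozygote arrays bracketed all the others. Homozygotes differed from heterozygotes by -0.03 (SE 0.43) and from wild type by -0.21 (SE 0.43), with limma adjusted p = 1 and 0.984.

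Rarb, the receptor whose promoter carries the element shown above, lay near the filter. It had 40.8 and 18.2 in homozygotes and 16.3 and 39.5 in heterozygotes, against 49.3 and 42.4 in wild type. Both wild-type arrays lay above all 4 deletion arrays, although the deletion arrays were spread from 4.12 to 5.30 on the log2 scale. This was so for 8.25% of all tested probe sets. Among the 8 genes it held also for Aldh1a7, which was picked for it, and for no other. Heterozygotes differed from wild type by -0.999 (SE 0.44, limma adjusted p = 0.838), homozygotes from wild type by -0.78 (SE 0.44, limma adjusted p = 0.973), and homozygotes from heterozygotes by 0.22 (SE 0.44, limma adjusted p = 1). Without heterozygote 1 the first of these was -0.46, and without homozygote 2 the second was -0.36.

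**Figure D2:**
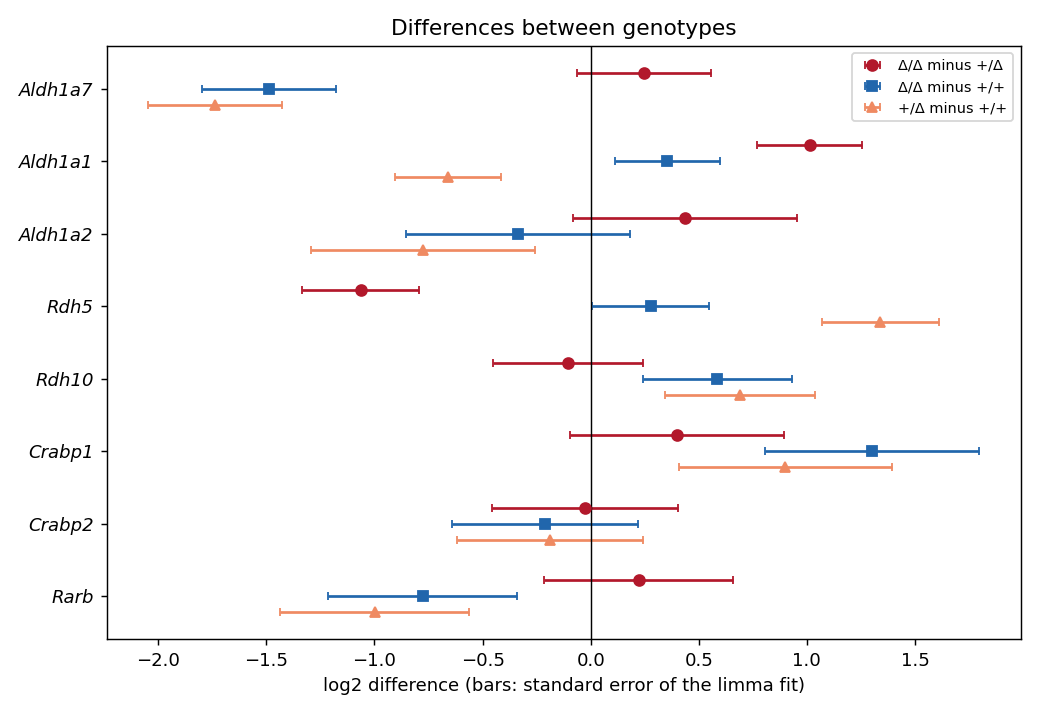
Log2 difference (x axis) of 8 retinoid genes above the filter for Δ/Δ minus +/Δ (circles), Δ/Δ minus +/+ (squares) and +/Δ minus +/+ (triangles), with bars for the standard error of the limma fit on 6 arrays. Aldh1a7 has both differences from +/+ at or under -1.49, and Rdh5 is higher in +/Δ in both comparisons that use it (-1.06 for Δ/Δ minus +/Δ and 1.34 for +/Δ minus +/+).

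Set side by side, limma called 0 of the 8 genes in each of 4 comparisons, where it also called 0 of 22519 probe sets (0% each). At an unadjusted p under 0.05, homozygotes against heterozygotes gave Aldh1a1 and Rdh5, 2 of 8 genes where 2.17% of probe sets passed. Homozygotes against wild type gave Aldh1a7 and Crabp1 (3.8% of probe sets), and heterozygotes against wild type gave Aldh1a7, Aldh1a1 and Rdh5 (5.26%). Homozygotes against both other genotypes gave Aldh1a1 (2.49%). Aldh1a7 and Rdh5 were chosen for such values, so nothing is read from these counts, and the comparisons share arrays of each genotype.

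Arrays of homozygotes and heterozygotes did not overlap for Aldh1a1 (higher, 12% of all tested probe sets) and Rdh5 (lower, 12.8%). Homozygotes lay above wild type for Aldh1a1 and Crabp1 (13.3%) and below it for Aldh1a7 and Rarb (14.9%). Heterozygotes lay above wild type for Rdh5 and Rdh10 (17.9%) and below it for Aldh1a7, Aldh1a1 and Rarb (19.3%). Both wild-type arrays lay above all deletion arrays for Aldh1a7 and Rarb (8.25%) and below them for 0 of 8 genes (7.58%). Aldh1a1 alone had its lowest values in both heterozygotes (5.28%). Both homozygotes exceeded all 4 other arrays for Aldh1a1 alone (3.27%), and lay below them for 0 of 8 (4.02%). The median difference of the 8 genes was 0.24 for homozygotes minus heterozygotes, 0.03 for homozygotes minus wild type and -0.42 for heterozygotes minus wild type, against -0.01, -0.02 and 0.0011 over the 11373 genes above the filter. The 8 genes thus had no shared direction. Their differences had 5, 4 and 3 positive signs in these comparisons.

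**Figure D3:**
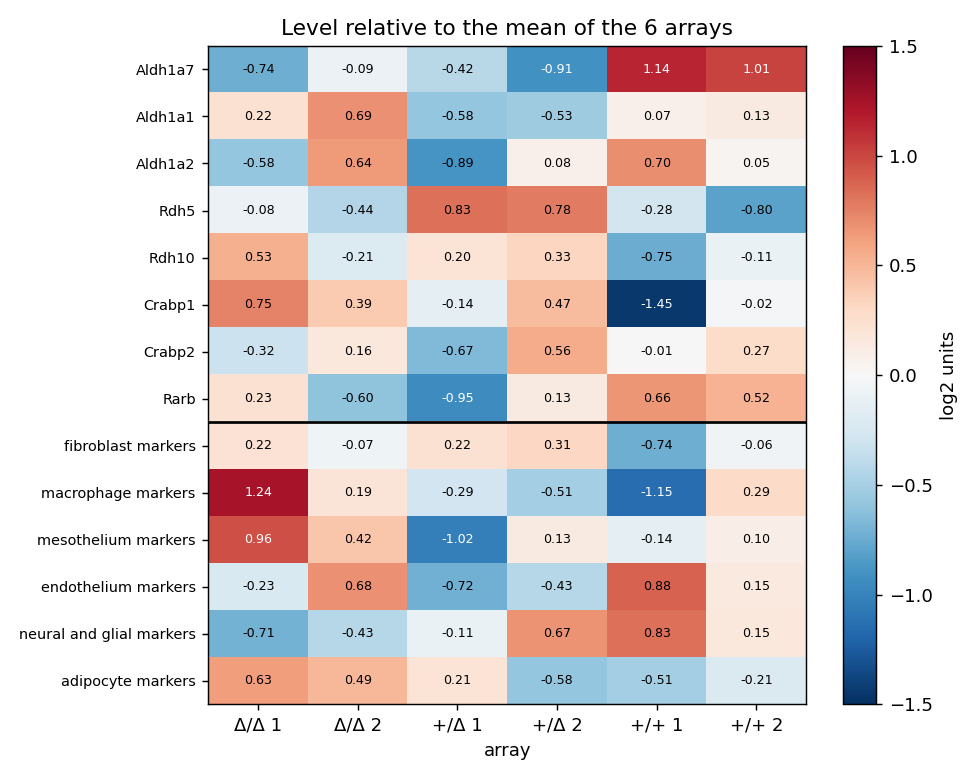
Log2 level of 8 retinoid genes (upper rows) and median level of 6 marker lists (lower rows) relative to the mean of the 6 arrays, which are the columns. Red is above and blue below the mean. Aldh1a7 is 1.14 and 1.01 in the +/+ arrays, and macrophage markers run from -1.15 in +/+ 1 to 1.24 in Δ/Δ 1.

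The remaining genes of the pathway were followed as lists, whose members are named by smallest unadjusted p against heterozygotes or wild type. None passed the threshold in any comparison (0 called in each list). Of 13 genes of retinol uptake, transport and storage, 12 were measured and 4 passed the filter. Lpl, which releases lipid from lipoproteins, had 2609.5 and 995 in homozygotes and 736 and 478 in heterozygotes, against 189 and 440.0 in wild type. Both homozygote arrays lay above all others in Lpl, as they did in 3.27% of all tested probe sets. Homozygotes differed in Lpl by 1.59 (SE 0.66) from heterozygotes and by 2.51 (SE 0.66) from wild type. Lpl is also on the list of adipocyte markers, of which 5 of 6 measured were above the filter. With Lpl counted, all 5 had higher means in homozygotes than in wild type (median difference 0.86) and 4 of 5 than in heterozygotes (median difference 0.85). Macrophage markers were highest in homozygote 1 and lowest in wild type 1, as Lpl was, and the part of either marker list in its values was not tested. Rbp4, the carrier of retinol in blood, differed by 0.48 and -0.33, and the lipoprotein receptor Lrp1 by -0.34 and 0.40. The retinol receptor Stra6 and the storage enzyme Lrat lay below the filter.

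Of 21 retinol and retinaldehyde oxidoreductases, 17 were measured and 10 passed the filter, 6 of them with positive and 4 with negative differences between homozygotes and heterozygotes. The alcohol dehydrogenase Adh7, which oxidises retinol, had 33.1 and 30.8 in homozygotes and 61.8 and 51.2 in heterozygotes, against 23.2 and 10.5 in wild type. Like Rdh5, Adh7 was highest in both heterozygote arrays, as were 5.38% of all tested probe sets. Its difference of heterozygotes from wild type was 1.57 (SE 0.37, limma adjusted p = 0.838), and that of homozygotes from heterozygotes -0.67 (SE 0.37). Rdh11, Rdh13, Dhrs7 and Akr1b8 differed between homozygotes and heterozygotes by -0.21 to 0.30.

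The enzymes that break down retinoic acid were near the bottom of the range. Cyp26b1 had 22.5 and 5.17 in homozygotes and 6.35 and 43.9 in heterozygotes, against 34.1 and 4.94 in wild type. Cyp26a1, itself induced by retinoic acid, lay between 12.2 and 16.1 in homozygotes and between 8.73 and 13.9 in heterozygotes, against 11.4 to 19.3 in wild type. Both were below the filter, and Cyp26c1 was not analysed here.

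Of 18 receptors, carriers and cofactors, 15 were measured and 12 passed the filter. Fabp5, a fatty acid carrier that also binds retinoic acid, had 6392 and 4838 in homozygotes and 2928 and 3875 in heterozygotes, against 4205 and 3419 in wild type. Both homozygote arrays exceeded the other 4, as they did in 3.27% of all tested probe sets. The difference was 0.76 (SE 0.27) from heterozygotes and 0.66 (SE 0.27) from wild type, with limma adjusted p = 1 and 0.973. The orphan nuclear receptor Nr2f1 lay lowest in both homozygote arrays, as did 4.02% of all tested probe sets. It had 219 and 155 in homozygotes and 308 and 333 in heterozygotes, against 239 and 222 in wild type. Its differences were -0.68 (SE 0.24) from heterozygotes and -0.33 (SE 0.24) from wild type. The receptor Rarg differed by -0.52 from heterozygotes, and Rora and the coactivator Ncoa1 differed by 0.45 and 0.64 from wild type. In this list 3 genes were positive and 9 negative between homozygotes and heterozygotes, with a median of -0.10.

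Of 26 genes known to respond to retinoic acid, 23 were measured and 14 passed the filter, Nr2f1 and Rarg again among them. Between homozygotes and heterozygotes 4 were positive and 10 negative, with a median of -0.27, and between homozygotes and wild type also 4 and 10, with a median of -0.20. These comparisons share the homozygote arrays. Between heterozygotes and wild type 9 were positive and 5 negative, with a median of 0.16. The list was not split into induced and repressed genes. Tgm2, a transglutaminase induced by retinoic acid, had 343 and 962 in homozygotes and 419 and 861 in heterozygotes, against 2153 and 742 in wild type, so the array wild type 1 stood alone. Hoxb4, a positional gene, had 17.9 and 49.3 in homozygotes and 36.8 and 58.5 in heterozygotes, against 60.0 and 67.5 in wild type. Homozygotes differed from wild type by -1.10 (SE 0.51) in Hoxb4, and from heterozygotes by -0.48 (SE 0.24) in the homeobox gene Meis1.

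Among 15 other aldehyde dehydrogenases, all measured, 13 passed the filter, 5 with positive and 8 with negative differences between homozygotes and heterozygotes. Aldh2, the mitochondrial enzyme for acetaldehyde, had 960.0 and 1282 in homozygotes and 1686 and 1227 in heterozygotes, against 1079 and 1491 in wild type. Their median differences were -0.03 between homozygotes and heterozygotes and 0.0015 between homozygotes and wild type. Aldh1l2, of mitochondrial folate metabolism, differed from wild type by 0.93 (SE 0.42), Aldh3b1 by -0.95 (SE 0.52) and Aldh5a1, of GABA breakdown, by 0.68 (SE 0.39). Aldh1b1 differed from heterozygotes by 0.30.

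**Figure D4:**
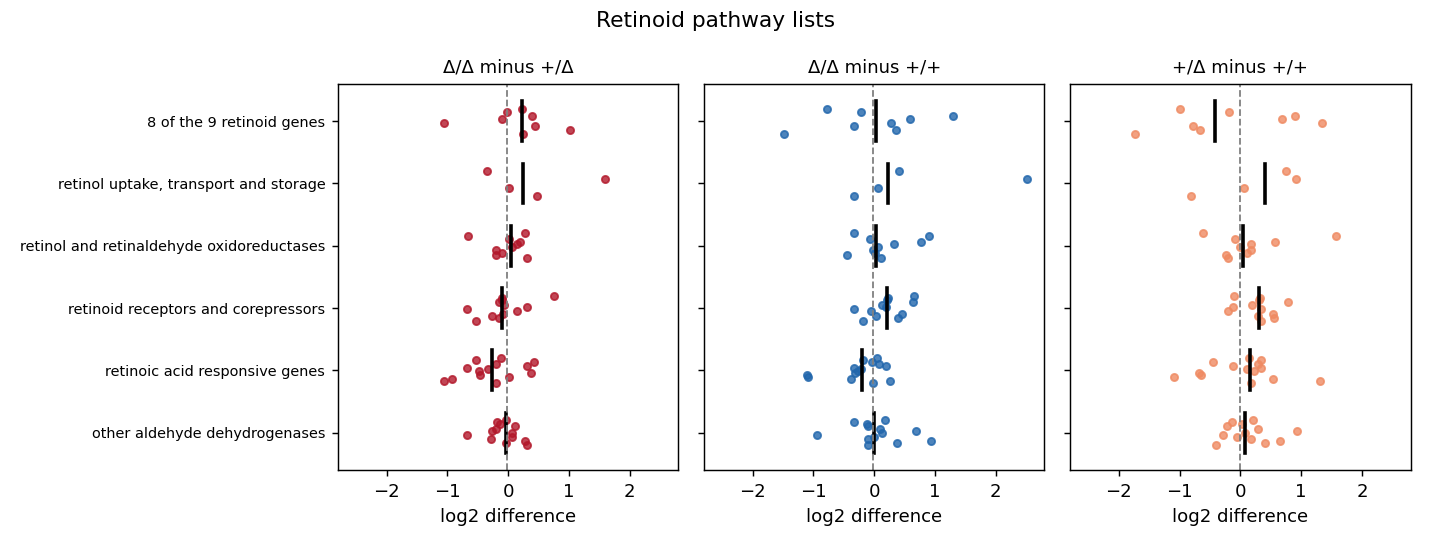
Log2 differences (x axis) of the genes above the filter in the 9-gene retinoid group (8 genes) and in 5 pathway lists, for Δ/Δ minus +/Δ, Δ/Δ minus +/+ and +/Δ minus +/+. Points are genes, black bars are list medians and the dashed line is the median of all 11373 genes. The list medians lie between -0.42 and 0.40.

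The genes most like Aldh1a7 over the 6 arrays, out of 10994 named genes, were Nup50, a nuclear pore protein (Pearson r = 0.996), C2cd2l (0.985), Gsto2, a glutathione transferase (0.985), Septin3 (0.984) and Slc66a1, a lysosomal amino acid transporter (0.981). They were chosen for likeness from values of the same 6 arrays, so r is a description. Septin3 had 32.6 and 47.1 in homozygotes and 35.2 and 33.3 in heterozygotes, against 79.5 and 77.2 in wild type. Nup50 covered a narrower range, with 395 and 452 in homozygotes and 410.2 and 455 in heterozygotes, against 612 and 498 in wild type. Most like Rdh5 were the kinase gene Mark1 (0.977), Dbt (0.969), the kinesin gene Kif13a (0.958), Ppp1r3d (0.956) and Arsg (0.955). Arsg, a sulfatase gene, had 48.9 and 36.0 in homozygotes and 74.4 and 67.7 in heterozygotes, against 36.3 and 32.2 in wild type.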

How the data were processed

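The authors deposited linear probe set intensities of 6 Affymetrix arrays, made from biotinylated cRNA per the labels. Not given in the sources used here were the software, the probe summary and any scaling. All 45101 probe sets were converted to log2(intensity + 1.78), the pseudocount being the 10th percentile of all values. Log2 medians spanned 0.29, over the limit of 0.1, so arrays were quantile normalized. The 64 control probe sets were dropped and the upper 50% by mean tested, 22519 in all. Symbols came from the platform annotation, updated to GRCm38.p6 by Entrez identifier. Probe sets had 1 symbol (34945), several (932, not used) or none (9160). No detection calls were used here.

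limma 3.58.1 in R 4.3.3 (lmFit, eBayes) fitted a mean per genotype over the 6 arrays, with 3 residual and 3.28 prior degrees of freedom, Benjamini-Hochberg adjustment over all tested probe sets and a threshold of 0.05. With 2 arrays per genotype, the number of arrays limits the precision. SE is that of the fit and SD that of 2 arrays. A gene is given by its brightest probe set. Members and lists were chosen with earlier results of these data known. The text names all members, up to 3 genes per list and comparison by smallest unadjusted p, and the 5 genes most correlated with Aldh1a7 and with Rdh5, predicted genes left out. Marker lists for liver, epithelium and skeletal muscle had 0, 2 and 2 genes above the filter. Alternatives were other normalizations, pseudocounts and filters, single arrays left out, a replicate block, an embryo sex covariate, an intensity trend and fits of 2 genotypes.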

Additional observations from a re-analysis of the deposited data

How the results depend on the processing

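Under the alternatives run, 0 of the 8 retinoid genes above the filter were called in any comparison. Of 575 recomputed differences of the 9 genes, 538 moved by less than the SD between replicates, 37 moved by more and 26 changed sign. Many of the 575 could not move, so the 538 are no measure of stability. Other filters, the replicate block, the intensity trend and fits of 2 genotypes leave each difference unchanged. Leaving out an array of a genotype outside a comparison of 2 genotypes does so too. Of the changes of sign, 3 were of differences over 0.5. Aldh1a3, below the filter, changed sign for homozygotes against heterozygotes without heterozygote 2. It also did for heterozygotes against wild type without heterozygote 1. Crabp1 changed sign for homozygotes against both other genotypes, from 0.85 to -0.46, with embryo sex in the model. The causes were not tested. The number of probe sets called on the whole array, 0 in each comparison, was 1 for heterozygotes against wild type once embryo sex was in the model (Egfl6) and 2 for homozygotes against heterozygotes with only their arrays fitted (Eif2s3y and a probe set with no single symbol). These were named after their values were seen. With 1 array left out it ranged from 0 to 2 for homozygotes against heterozygotes and for homozygotes against both other genotypes, from 0 to 1 for heterozygotes against wild type, and stayed at 0 for homozygotes against wild type. The calls came without wild type 1 or wild type 2, and were Eif2s3y, alone or with the same probe set. The lone array left in a genotype is assumed to vary like the others. No title says that a number marks a shared litter or day, so the main fit did not pair arrays by number. Deviations of arrays with the same number from their genotype means correlated at -0.14, -0.14 and -0.36. With 2 arrays per genotype these deviations mirror each other, so the correlations cannot decide whether a litter or day was shared. With the replicate block, 0 probe sets were called in each comparison. A pseudocount of 16 brought Rdh5 to 0.94 for heterozygotes minus wild type. Dim genes, Rarb, Rdh5 and Aldh1a3 above all, are limited by low signal, and 2 arrays per genotype by number.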
